A study of Homo sapiens with 9 samples.

Results

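YAP1, WWTR1 (the gene of TAZ), TEAD1, TEAD2, TEAD3, TEAD4, AJUBA, AMOTL2, LATS2 and MYOF form the YAP, TAZ and TEAD axis examined here. The genes were chosen by symbol and are 10 of the 35762 gene symbols in a table of estimated counts. RNA came from TYUC-1, a cell line of a neuroendocrine carcinoma of the esophagus that grows in suspension. Cells were sampled on day 0, day 3 and day 6 of EPZ-6438, an inhibitor of the histone methyltransferase EZH2, at a stated dose of 2 uM, and each day had 3 libraries given as biological replicates. EPZ-6438 is given as the treatment of the day 0 libraries too. The protocol also names DMSO, and whether the day 0 cells had received it is not stated. No vehicle library of day 3 or day 6 was analysed here, so exposure and days in culture cannot be told apart. TYUC-1 is 1 cell line, and nothing says whether the replicates were separate cultures, so p-values measure the spread between these libraries.

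YAP and TAZ are transcriptional co-activators without a DNA-binding domain of their own. They act in the nucleus by binding the TEAD proteins, which recognise the DNA motif GGAATG. The Hippo kinases restrain them: STK3 and STK4 with SAV1 activate LATS1 and LATS2, which with MOB1 phosphorylate YAP and TAZ and keep them in the cytoplasm. In epithelia the pathway responds to cell contact, polarity and tension. In small cell lung cancer, another neuroendocrine tumour, loss of YAP1 transcripts is a known feature of most tumours.

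The libraries held 21638874 to 31235055 estimated counts. Libraries of a day resembled each other most (mean r of 0.976 to 0.997 with the others of the same day over 11041 genes), and replicate 2 of day 0 had the lowest value. Of 9 markers of the labelled cell type 8 had counts. CHGA was at 0 in all 9 libraries, and SYP, INSM1 and NEUROD1 each averaged 2.71 to 6.07 CPM (counts scaled to a common library size by TMM) on each day. POU2F3, a tuft cell factor, averaged 285, 289 and 227 CPM on days 0, 3 and 6. Among 8 fibroblast markers the summed level was 55.4 to 60.1, 78.0 to 83.8 and 73.7 to 80.8 CPM, most of it PDGFRA (56.9, 75.1 and 65.3 CPM). COL1A1 averaged 0.492, 3.60 and 9.53 CPM, THY1 was at 0, and COL3A1, DCN and LUM averaged at most 0.288 CPM. The 5 endothelial markers summed to 2.49 to 3.40, 5.09 to 5.85 and 9.15 to 12.6 CPM, mostly TEK, with CDH5 and KDR at most 0.0157 CPM on average. The 5 squamous and basal markers summed to 1.11 to 1.31, 0.602 to 1.83 and 6.56 to 7.88 CPM, and the 4 general epithelial markers to 1383 to 1590, 1265 to 1329 and 1456 to 1568 CPM. The 5 leukocyte markers summed to 4.21 to 6.42, 5.35 to 6.93 and 5.42 to 7.58 CPM. The part of these levels in the results was not tested. In bulk RNA, a change in the number of cells that express a gene and a change in RNA per cell cannot be told apart.

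Promoter windows of RefSeq (GRCh38.p14) were available for 8 of the 10 genes. Each runs from 250 bases before to 50 bases after a transcription start, and WWTR1, TEAD2, AJUBA and AMOTL2 have a pair of windows. The TEAD motif GGAATG, searched as GGAATG and as its reverse complement CATTCC, was found in 4 of the 12 windows, belonging to YAP1, AJUBA, AMOTL2 and LATS2. It was found in 4928 of all 35116 windows, and in a window of 16.7% of all genes. These 4 windows are shown because they hold the motif. The transcripts of WWTR1, TEAD2, TEAD3 and MYOF, whose windows had no match, changed as well. The other window of AJUBA and that of AMOTL2 had no match either. The first 280 bases are given 5′ to 3′ on the strand of the gene, with the motif in capitals.
YAP1 (chr11:102110197-102110476, plus strand): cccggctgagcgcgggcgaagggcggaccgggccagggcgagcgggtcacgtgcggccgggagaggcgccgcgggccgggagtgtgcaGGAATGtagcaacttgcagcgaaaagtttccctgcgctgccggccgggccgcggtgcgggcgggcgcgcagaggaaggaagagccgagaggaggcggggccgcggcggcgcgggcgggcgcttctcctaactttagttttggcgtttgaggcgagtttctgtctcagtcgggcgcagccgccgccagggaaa
AJUBA (chr14:22976813-22977092, minus strand): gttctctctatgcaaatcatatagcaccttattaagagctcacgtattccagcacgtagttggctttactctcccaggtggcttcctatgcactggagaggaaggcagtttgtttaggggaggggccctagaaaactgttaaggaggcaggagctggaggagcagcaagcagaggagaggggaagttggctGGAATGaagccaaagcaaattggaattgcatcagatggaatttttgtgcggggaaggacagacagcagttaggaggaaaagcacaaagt
AMOTL2 (chr3:134374418-134374697, minus strand): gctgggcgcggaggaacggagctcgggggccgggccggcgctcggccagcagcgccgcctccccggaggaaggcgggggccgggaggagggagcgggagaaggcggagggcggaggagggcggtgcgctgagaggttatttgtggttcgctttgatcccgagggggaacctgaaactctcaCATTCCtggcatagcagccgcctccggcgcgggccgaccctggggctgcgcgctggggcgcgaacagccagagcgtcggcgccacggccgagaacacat
LATS2 (chr13:21061557-21061836, minus strand): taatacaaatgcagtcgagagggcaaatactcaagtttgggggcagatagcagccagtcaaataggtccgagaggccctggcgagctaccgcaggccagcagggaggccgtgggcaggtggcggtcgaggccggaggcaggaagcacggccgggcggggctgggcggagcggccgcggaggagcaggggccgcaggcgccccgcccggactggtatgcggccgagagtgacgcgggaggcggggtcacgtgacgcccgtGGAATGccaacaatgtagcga
The motif begins 162 bases before the start in YAP1, 59 before it in AJUBA, 69 before it in AMOTL2, and at base 10 after it in LATS2. In the YAP1 window 40 CpG dinucleotides were counted, as many as or more than in 93.3% of all windows, whose median is 14. The AMOTL2 window shown holds 37, that of LATS2 29 and that of AJUBA 3. MYOF, with 12 CpG dinucleotides, had no match in its window. A match describes the letters of the window and does not show a site in use.

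YAP1 was the one member without a count on day 0 (chromosome 11, 102110461 to 102233423, plus strand; gene coordinates are GENCODE release 29 on GRCh38). It encodes YAP, the founding co-activator of the pathway. The estimated counts were 0 in each of the 3 day 0 libraries, 15, 11 and 17 on day 3, and 102, 123 and 108 on day 6. Levels were 0.559, 0.368 and 0.739 CPM on day 3 and 3.43, 5.30 and 4.65 CPM on day 6. The 3 groups of libraries did not overlap, and the day 6 libraries were the highest. A pooled count of 0 allows a level of up to 0.0398 CPM over the day 0 libraries (3 counts, counting error only). Against that floor YAP1 was at least 13.6-fold higher on day 3 and at least 110-fold higher on day 6 than on day 0. Without replicate 1 of day 0, the deepest library, these bounds were 8.05 and 65.3. Day 6 held 333 counts and day 3 held 43, a ratio of 8.10 (exact 95% interval 5.89 to 11.4), and the fitted log2 fold change was 3.02 (SE 0.30). YAP1 passed the filter on low counts only through its day 6 libraries. A gene with this pattern had to be high on day 6 to be tested at all, so its p-values are not given from that fit. In the edgeR fit with no filter the adjusted p against day 0 was 2.39e-06 on day 3 and 2.54e-12 on day 6. Day 6 against day 3 gave 3.01 in that fit (adjusted p = 3.13e-08). The processed pseudogenes YAP1P1 and YAP1P2, which could share reads with it, held at most 2 counts in any library.

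WWTR1 encodes TAZ, the paralog of YAP (chromosome 3, 149517235 to 149736714, minus strand). Its level was 12.2, 13.0 and 12.4 CPM on day 0, 19.1, 19.1 and 18.8 CPM on day 3, and 15.2, 17.3 and 14.8 CPM on day 6. The day 3 libraries were the highest and the day 0 libraries the lowest, with no overlap. WWTR1 rose on day 3 (log2 fold change against day 0 of 0.60, SE 0.09, adjusted p = 0.000252) and was also higher on day 6 than on day 0 (0.33, SE 0.09, adjusted p = 0.00647). Day 6 was lower than day 3 (-0.27, SE 0.08, adjusted p = 0.0484), a call that was lost in 13 of 17 alternatives (adjusted p of 0.0128 to 0.152 over all of them), the replicate block among them (0.061). It was lost without replicate 1 (0.0563) or 3 (0.0605) of day 0, without any 1 library of day 3 (0.118 to 0.151), and without replicate 1 (0.152) or 3 (0.137) of day 6. The change over days 3 to 6 was smaller than that over days 0 to 3 by 0.88 on the log2 scale (difference -0.88, SE 0.15, adjusted p = 0.00409).

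The 2 co-activator genes together amounted to 2.49 ± 0.0821, 3.88 ± 0.00870 and 3.96 ± 0.405 CPM per kilobase of transcript on days 0, 3 and 6 (SD, n = 3 each). Length was that of the longest protein-coding transcript in GENCODE 29, 5398 bases for YAP1 and 5030 for WWTR1. YAP1 made up 0% of this sum in each day 0 library, 2.66%, 1.76% and 3.53% on day 3, and 17.4%, 22.2% and 22.6% on day 6. The TAZ share therefore averaged 100%, 97.3% ± 0.885 and 79.2% ± 2.91. The share differed between the days (exact permutation test over the 9 libraries, p = 0.00357, the smallest this design can give), and the 3 days did not overlap. The 2 shares add to 100%, so this test largely repeats the rise of YAP1 from 0 and is no separate result. WWTR1 remained the more abundant co-activator transcript per length in all 9 libraries.

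**Figure D1:**
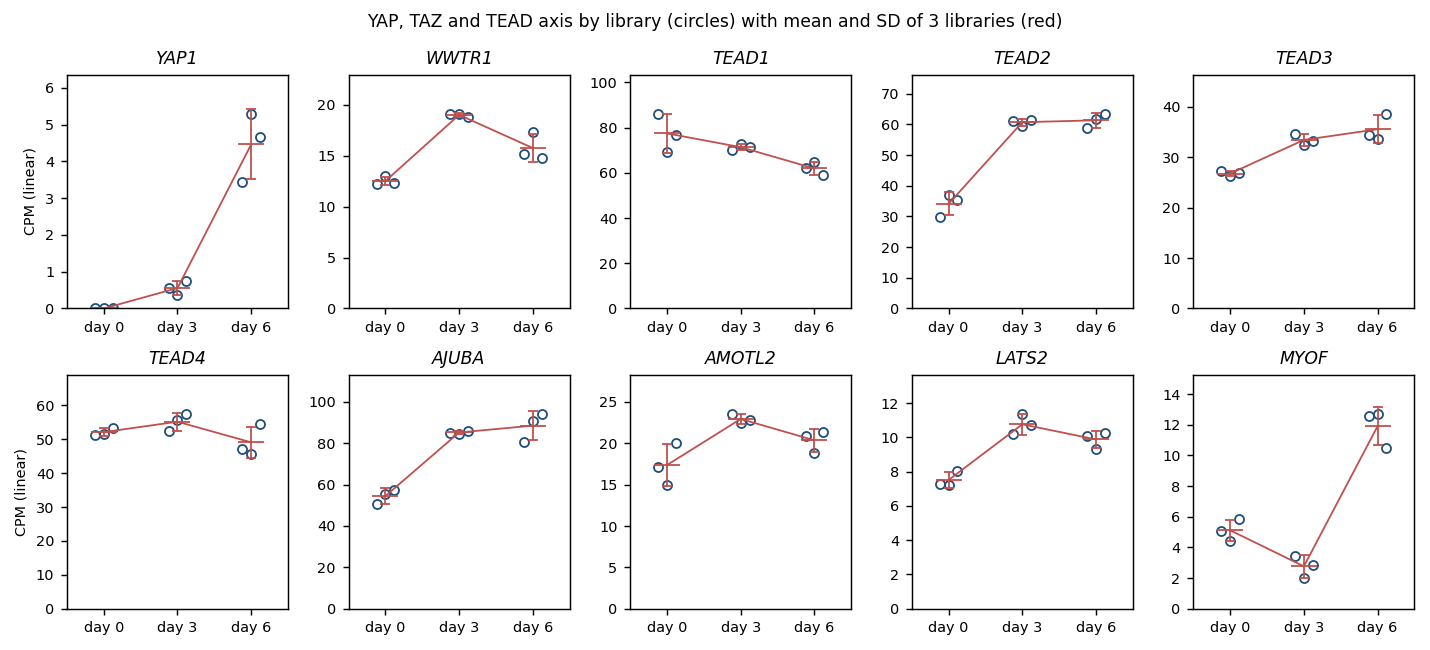
Level of each of the 10 genes in CPM on a linear axis from 0, by day of EPZ-6438; circles are the 3 libraries of a day, red bars the mean and SD. YAP1 has 0 counts on day 0 and 3.43 to 5.30 CPM on day 6, WWTR1 is highest on day 3, TEAD2 and AJUBA reach their day 6 level by day 3, and MYOF is lowest on day 3.

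The TEAD factors are the DNA-binding partners of both co-activators, and all 4 genes were expressed on day 0. TEAD2 (chromosome 19, 49340595 to 49362457, minus strand) was at 29.9, 37.0 and 35.4 CPM on day 0, 61.2, 59.3 and 61.5 CPM on day 3, and 58.8, 61.6 and 63.5 CPM on day 6. All later libraries lay above those of day 0, and days 3 and 6 overlapped. TEAD2 rose on day 3 (0.83, SE 0.09, adjusted p = 2.45e-05) and was higher on day 6 (0.85, SE 0.09, adjusted p = 6.98e-06), each against day 0. Day 6 against day 3 gave 0.01 (SE 0.08, adjusted p = 0.936), and the later change was smaller than the earlier one (-0.82, SE 0.14, adjusted p = 0.00565).

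TEAD3 (chromosome 6, 35473597 to 35497076, minus strand) also rose, by less. It was at 27.2, 26.2 and 26.9 CPM on day 0, 34.7, 32.4 and 33.2 CPM on day 3, and 34.4, 33.6 and 38.7 CPM on day 6. All 6 later libraries lay above the 3 of day 0. The log2 fold change against day 0 was 0.32 on day 3 (SE 0.08, adjusted p = 0.00641) and 0.41 on day 6 (SE 0.08, adjusted p = 0.000818).

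TEAD1 (chromosome 11, 12674591 to 12944483, plus strand) moved the other way. It was at 86.2, 69.2 and 76.8 CPM on day 0, 70.1, 72.6 and 71.2 CPM on day 3, and 61.9, 64.7 and 59.05 CPM on day 6. The day 6 libraries were the lowest 3 of the 9, and replicate 2 of day 0 lay below all of day 3. TEAD1 fell on day 6 against day 0 (-0.32, SE 0.08, adjusted p = 0.0066), a call lost when scaled by library size alone (-0.21, adjusted p = 0.104). Day 3 against day 0 gave -0.12 (SE 0.08, adjusted p = 0.284), or an adjusted p of 0.0219 without replicate 2 of day 0. Day 6 against day 3 gave -0.20 (SE 0.08, adjusted p = 0.133), or 0.0163 without that library.

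TEAD4 (chromosome 12, 2959330 to 3040673, plus strand) did not pass in any comparison. It was at 51.3, 51.6 and 53.4 CPM on day 0, 52.3, 55.7 and 57.5 CPM on day 3, and 47.2, 45.6 and 54.4 CPM on day 6, with overlap between all days. Its log2 fold changes were 0.08 (SE 0.08, adjusted p = 0.442) on day 3 and -0.09 (SE 0.08, adjusted p = 0.392) on day 6 against day 0, and -0.17 (SE 0.08, adjusted p = 0.195) on day 6 against day 3.

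Per kilobase of transcript, the 4 TEAD genes summed to 62.9 ± 1.15, 77.1 ± 1.46 and 73.4 ± 4.12 CPM on days 0, 3 and 6, and their composition shifted. TEAD2 made up 22.2% ± 2.25, 32.3% ± 0.687 and 34.3% ± 1.11 of the sum. TEAD4 made up 49.0% ± 0.258, 42.3% ± 1.33 and 39.5% ± 1.61. TEAD1 made up 14.5% ± 1.73, 10.9% ± 0.252 and 9.98% ± 0.952, and TEAD3 14.3% ± 0.387, 14.5% ± 0.674 and 16.2% ± 0.386. Per kilobase TEAD4 held the largest share in every library, whereas in CPM, without lengths, TEAD1 was above TEAD4 in all 9 libraries. The share of TEAD2 was larger in each library of days 3 and 6 than in any of day 0. Each of the 4 shares differed between the days (exact permutation tests, adjusted over the 4 genes, p = 0.00952 for TEAD1, TEAD2 and TEAD4 and 0.0179 for TEAD3). The difference for TEAD3 had an unadjusted p of 0.0536 without any 1 of the day 6 libraries. Shares within a sum depend on each other, and the share of TEAD1 rests on a transcript length of 8477 bases, the longest of several. In counts as deposited, without lengths, its share on day 6 was 10.8 percentage points lower than on day 0 (-10.8), against -4.54 points per kilobase. On that scale the day 6 minus day 0 difference was -3.79 points for TEAD4 (-9.48 per kilobase), 3.02 for TEAD3 (1.96) and 11.5 for TEAD2 (12.1).

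**Figure D2:**
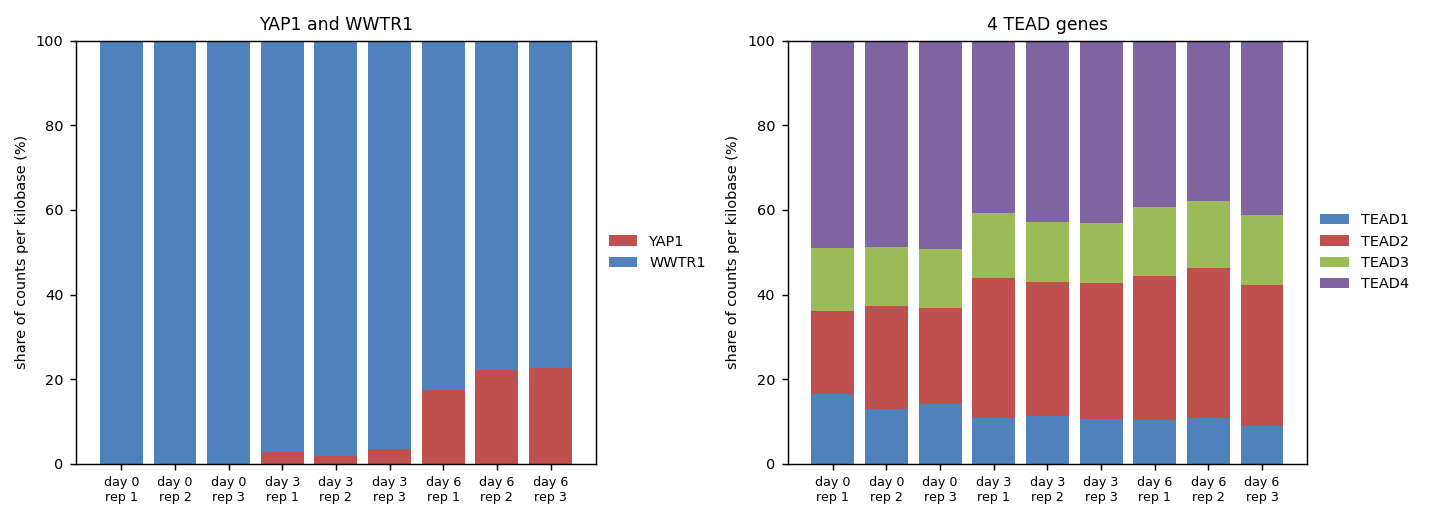
Share of each gene in the counts per kilobase of YAP1 and WWTR1 (left) and of the 4 TEAD genes (right), in percent, 1 bar per library in order of day. The YAP1 part is 0% on day 0 and 17.4% to 22.6% on day 6, and TEAD2 takes a larger part in all libraries of days 3 and 6 than on day 0.

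AJUBA, AMOTL2 and LATS2 act on the pathway itself. AJUBA is a LIM-domain scaffold that binds LATS kinases and limits their activity (chromosome 14, 22971174 to 22982642, minus strand). It was at 50.4, 55.4 and 57.6 CPM on day 0, 85.1, 84.5 and 86.0 CPM on day 3, and 80.6, 90.6 and 94.2 CPM on day 6. Every later library lay above every day 0 library, and days 3 and 6 overlapped. AJUBA rose on day 3 (0.65, SE 0.08, adjusted p = 9.69e-05) and was higher on day 6 (0.70, SE 0.08, adjusted p = 1.94e-05) than on day 0. Its change over days 3 to 6 was smaller than that over days 0 to 3 (-0.59, SE 0.14, adjusted p = 0.0223), a call lost without any 1 of the day 3 libraries or replicate 1 of day 6 (0.0633 to 0.122).

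AMOTL2 encodes an angiomotin-family protein that binds YAP and TAZ and holds them outside the nucleus, and LATS2 encodes a kinase that phosphorylates them. Both are also known targets of YAP and TAZ, as feedback. AMOTL2 (chromosome 3, 134355874 to 134375479, minus strand) was at 17.1, 15.0 and 19.98 CPM on day 0, 23.6, 22.4 and 22.8 CPM on day 3, and 20.9, 18.8 and 21.4 CPM on day 6. It rose on day 3 (0.40, SE 0.10, adjusted p = 0.00937), while the day 6 libraries overlapped those of day 0 (0.23, SE 0.10, adjusted p = 0.0804). The day 6 difference did pass without replicate 3 of day 0 (0.0162) and with library size as the only scaling (0.0287), in a range of 0.0162 to 0.231. LATS2 (chromosome 13, 20973032 to 21061547, minus strand) was at 7.28, 7.23 and 8.04 CPM on day 0, 10.2, 11.4 and 10.7 CPM on day 3, and 10.1, 9.31 and 10.3 CPM on day 6. Its later libraries all lay above those of day 0, and it rose on day 3 (0.52, SE 0.10, adjusted p = 0.00157) and was higher on day 6 (0.40, SE 0.10, adjusted p = 0.0049). Day 6 against day 3 did not pass for AMOTL2 (-0.17, SE 0.10, adjusted p = 0.314) or LATS2 (-0.12, SE 0.10, adjusted p = 0.452). The later minus the earlier change of AMOTL2 was -0.57 (SE 0.18, adjusted p = 0.0729), and it passed without replicate 2 (0.0319) or 3 (0.0298) of day 0.

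MYOF encodes myoferlin, a membrane repair protein of the ferlin family and a target gene of YAP in published signatures (chromosome 10, 93306429 to 93482317, minus strand). Its level was 5.10, 4.42 and 5.83 CPM on day 0, 3.47, 2.01 and 2.83 CPM on day 3, and 12.5, 12.7 and 10.5 CPM on day 6. The day 3 libraries were the lowest 3 and the day 6 libraries the highest 3, with no overlap between the days. MYOF fell on day 3 (-0.89, SE 0.19, adjusted p = 0.0033), and on day 6 it was higher than on day 0 (1.22, SE 0.17, adjusted p = 9.32e-05) and than on day 3 (2.11, SE 0.18, adjusted p = 9.77e-06). The later change exceeded the earlier one by 3.00 on the log2 scale (SE 0.34, adjusted p = 0.000464), and no alternative changed any of these 4 calls.

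**Figure D3:**
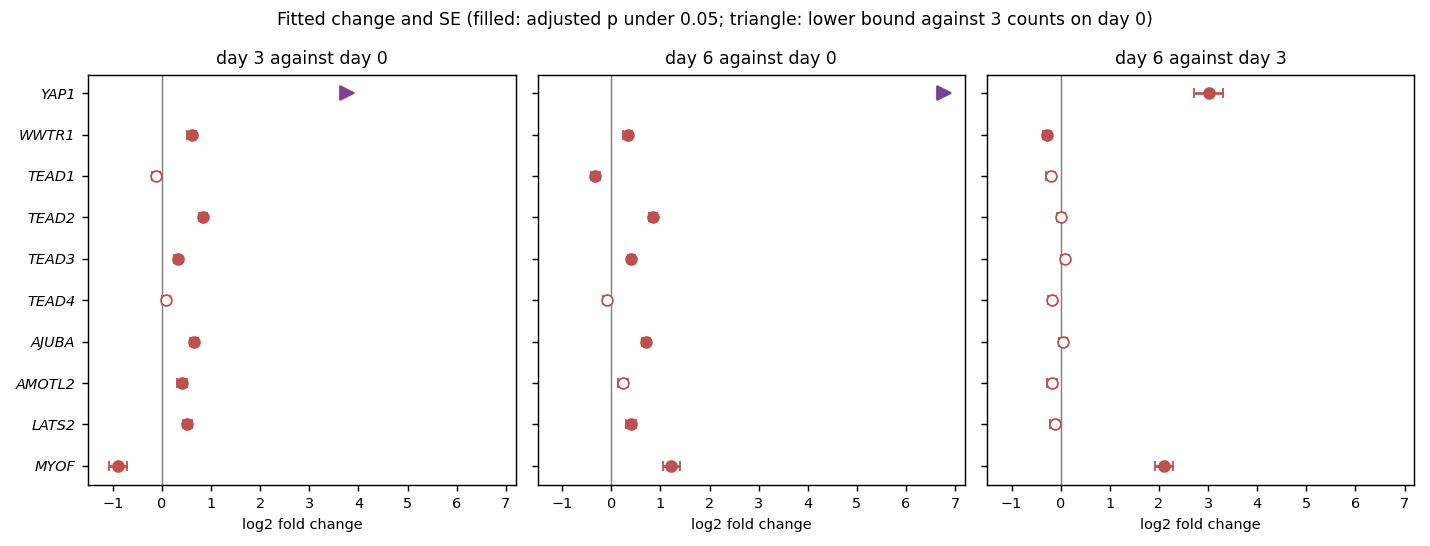
Fitted log2 fold change with its SE for each of the 10 genes in the 3 comparisons; filled circles passed an adjusted p of 0.05, open ones did not, and triangles mark the lower bound for YAP1 against 3 counts on day 0. Most changes against day 0 are present on day 3, and day 6 against day 3 shows YAP1 (3.02) and MYOF (2.11) as the rises. The filled circle of YAP1 is from the filtered fit, whose filter it passed only through day 6.

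On day 3 against day 0, 7 of the 10 genes were higher and 1 lower, where 22.5% of all 15345 tested genes were called higher and 18.1% lower (40.6% in either direction). On day 6 against day 0, 7 were higher and 1 lower, where 28.9% were higher and 25.7% lower (54.6%). On day 6 against day 3, 2 were higher and 1 lower, against 11.5% and 4.76% of all genes (16.3%), and the 1 lower is the unstable call of WWTR1. The libraries of the days compared did not overlap in 8, 8 and 5 of the 10 genes, against 53.8%, 58.7% and 43.5% of all tested genes. The median log2 fold change of the 10 genes was 0.46, 0.40 and -0.05 in the 3 comparisons, against 0.01, 0.01 and -0.00125 over all tested genes, and the first 2 medians are the same with YAP1 at its bound. For the difference between the later and the earlier change, 1 gene was higher (MYOF) and 4 were lower (WWTR1, TEAD2, AJUBA and LATS2), against 1.56% and 6.01% of all genes (7.57% in either direction). These counts include YAP1, which passed the filter only through its day 6 libraries. Without YAP1, 6 of the other genes were higher and 1 lower on day 3 against day 0 (22.5% and 18.1% of all tested genes). On day 6 against day 0, 6 of them were higher and 1 lower (28.9% and 25.7%). On day 6 against day 3, 1 of these others was higher (MYOF), near the 11.5% of all tested genes, and 1 lower (WWTR1), where 4.76% were lower. The later minus the earlier change has no finite size for YAP1, which was at 0 on day 0. The 3 comparisons share libraries, so their counts are not independent of each other.

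Per kilobase of transcript the order of the 10 genes changed little. On day 0 it ran from TEAD4 (30.8 ± 0.653 CPM per kilobase) through TEAD2 (13.97 ± 1.53), AJUBA (12.8 ± 0.857), TEAD1 (9.13 ± 1.00), TEAD3 (8.98 ± 0.171), AMOTL2 (3.84 ± 0.552), WWTR1 (2.49 ± 0.0821), LATS2 (1.36 ± 0.0822) and MYOF (0.762 ± 0.105) to YAP1 at 0. The neighbours TEAD2 and AJUBA, and TEAD1 and TEAD3, overlapped. On day 6 the order ran from TEAD4 (29.05 ± 2.76) through TEAD2 (25.1 ± 0.968), AJUBA (20.8 ± 1.65), TEAD3 (11.9 ± 0.917), TEAD1 (7.30 ± 0.336), AMOTL2 (4.50 ± 0.306), WWTR1 (3.13 ± 0.265), LATS2 (1.79 ± 0.0913) and MYOF (1.77 ± 0.186) to YAP1 (0.826 ± 0.176). There LATS2 and MYOF overlapped, and TEAD3 lay above TEAD1 on days 3 and 6. The place of TEAD1 depends on the transcript length used.

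The kinase core restrains YAP and TAZ. Of its 17 tested genes 3 were higher and 8 lower on day 3, where 22.5% of all tested genes were higher and 18.1% lower, and 3 were higher and 8 lower on day 6, where 28.9% were higher and 25.7% lower, each against day 0. Of the 17, 2 were higher and 0 lower on day 6 against day 3 in edgeR, DESeq2 and limma-voom (2 lower at an unadjusted p under 0.05). In edgeR 11.5% of all tested genes were higher there and 4.76% lower. The list's median log2 fold change on day 6 against day 0 was -0.25. TAOK3, a kinase upstream of the core, averaged 79.3 ± 4.45, 53.4 ± 4.17 and 54.9 ± 4.33 CPM on days 0, 3 and 6 (day 6 against day 0, -0.53, SE 0.09, adjusted p = 0.000263). LATS1, the paralog of LATS2, averaged 61.3 ± 1.73, 51.2 ± 3.56 and 44.6 ± 3.02 CPM and fell on day 6 against day 0 (-0.46, SE 0.08, adjusted p = 0.000415), while LATS2 rose. MAP4K5 fell as well (-0.46, SE 0.09, adjusted p = 0.00096) and MAP4K4, another kinase that can activate LATS, rose (0.42, SE 0.08, adjusted p = 0.000954). The lower count on day 3 was 4 when scaled by library size alone, and 5, 4 and 4 without replicate 1, 2 or 3 of day 3. The count of 2 higher on day 6 against day 3 was 0 without any 1 of the day 3 libraries or without replicate 1 or 2 of day 6, and 1 without replicate 3 of day 6, and 3 were lower without replicate 2 of day 0.

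STRIPAK is a phosphatase complex that counteracts the Hippo kinases. Of its 12 tested genes 1 was higher and 5 lower on day 3 (22.5% and 18.1% of all tested genes) and 1 higher and 5 lower on day 6 (28.9% and 25.7%), each against day 0. On day 6 against day 3, 0 passed in edgeR, DESeq2 or limma-voom, where 16.3% of all tested genes passed in edgeR. At an unadjusted p under 0.05, 1 was higher, and 1 passed without replicate 2 of day 0. The lower count on day 3 was 3 without replicate 1 or 2 of day 3, and scaled by library size alone 3 were lower on day 3 and 3 higher on day 6. On day 6 against day 0 the subunit genes STRN3 (-0.44, SE 0.08, adjusted p = 0.000684), SLMAP (-0.38, SE 0.07, adjusted p = 0.000888) and MOB4 (-0.63, SE 0.13, adjusted p = 0.00172) and the catalytic subunit gene PPP2CA (-0.52, SE 0.11, adjusted p = 0.0016) fell. The list's median was -0.16.

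Upstream regulators link cell contacts and polarity to the kinases. Of 22 tested genes, from a list of 25 that includes AJUBA and AMOTL2, 9 were higher and 1 lower on day 3 (22.5% and 18.1% of all tested genes) and 8 were higher and 6 lower on day 6 (28.9% and 25.7%), each against day 0. On day 6 against day 3, 4 were higher and 1 lower (11.5% and 4.76% of all tested genes). The atypical cadherin gene FAT1 had 12 counts on day 0, 496 on day 3 and 1231 on day 6, a ratio of 102 for day 6 against day 0 (exact 95% interval 57.9 to 197). FRMD6, a FERM-domain protein at the cell cortex, averaged 15.9 ± 1.88, 29.5 ± 0.265 and 45.3 ± 3.86 CPM (day 6 against day 0, 1.51, SE 0.10), and AMOTL1, an angiomotin like AMOTL2, 15.6 ± 2.76, 21.3 ± 0.912 and 37.7 ± 1.54 CPM (1.27, SE 0.11). Both rose again on day 6 against day 3, FRMD6 with an adjusted p of 0.000726 and AMOTL1 with 0.000308. Scaled by library size alone, 9 of the 22 were higher and 2 lower on day 6. Without replicate 2 of day 0, the genes called lower numbered 5 on day 3 and 10 on day 6 against day 0, and 5 on day 6 against day 3. The 1 lower on day 3 was 0 without any 1 of the day 3 libraries and 2 without replicate 3 of day 6.

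VGLL proteins bind TEAD in competition with YAP and TAZ. VGLL4 averaged 96.3 ± 2.74, 94.7 ± 1.87 and 97.8 ± 3.56 CPM and did not pass in any comparison (day 6 against day 0, 0.02, SE 0.07, adjusted p = 0.793). VGLL3 averaged 0.518 ± 0.162, 0.611 ± 0.168 and 0.674 ± 0.108 CPM (0.39, SE 0.34, adjusted p = 0.36). VGLL1 and VGLL2 held at most 3 counts over the libraries of a day and were not tested.

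A published signature of 22 YAP and TAZ target genes, which includes MYOF, AMOTL2 and LATS2, had 16 tested genes. Because a gene at 0 on day 0 was tested only where later days had counts, the tested genes lean towards rises. Of the 16, 6 were higher and 2 lower on day 3 (22.5% and 18.1% of all tested genes), and 9 were higher and 2 lower on day 6 (28.9% and 25.7%), each against day 0. On day 6 against day 3, 5 were higher and 1 lower (11.5% and 4.76% of all tested genes). The median log2 fold change was 0.22 on day 3 and 0.81 on day 6 against day 0. The 2 lower on day 3 were 1 without replicate 1 or 3 of day 0 or any 1 of the day 3 libraries. Without the 3 genes of the axis, 7 of 13 were higher and 2 lower on day 6. The 2 lower were GADD45A and ASAP1. GADD45A averaged 20.2 ± 3.00, 19.5 ± 1.23 and 13.4 ± 0.522 CPM (day 6 against day 0, -0.59, SE 0.11, adjusted p = 0.00072). ASAP1 averaged 232 ± 9.04, 201 ± 3.36 and 196 ± 3.50 CPM (-0.24, SE 0.07, adjusted p = 0.00815). FJX1, a target gene with a secreted product, averaged 0.393 ± 0.0723, 0.829 ± 0.137 and 2.59 ± 0.0441 CPM (day 6 against day 0, 2.72, SE 0.25). F3, the gene of tissue factor, averaged 0.783 ± 0.311, 0.947 ± 0.254 and 4.06 ± 0.304 CPM (2.41, SE 0.29). DOCK5, an exchange factor for Rac, averaged 6.03 ± 0.51, 9.37 ± 0.568 and 19.8 ± 1.47 CPM (1.72, SE 0.10). All 3 were also higher on day 6 than on day 3, with adjusted p of 0.000286 for FJX1, 0.000278 for F3 and 1.69e-05 for DOCK5. The best-known targets, chosen here after their values were seen, did not move with them. CCN2 was at 0 in all 9 libraries, ANKRD1 held 3, 2 and 0 counts over the libraries of days 0, 3 and 6, and CCN1 averaged 5.66 ± 0.681, 6.17 ± 0.234 and 4.83 ± 0.679 CPM (day 6 against day 0, -0.22, SE 0.14, adjusted p = 0.211).

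**Figure D4:**
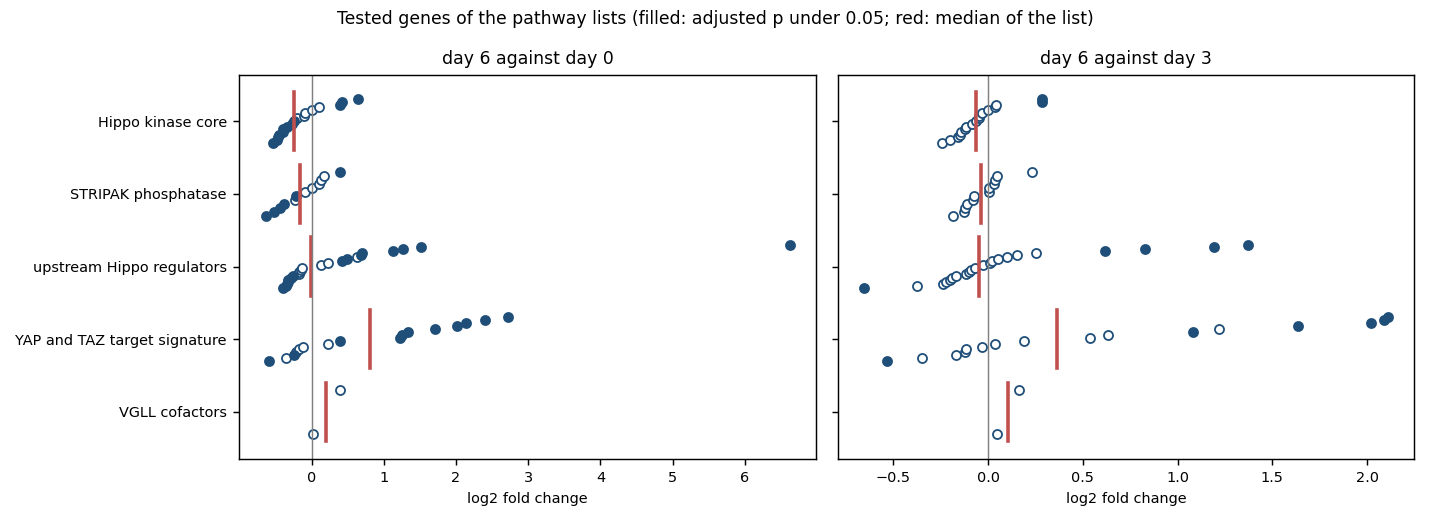
Log2 fold change of each tested gene of the pathway lists, day 6 against day 0 (left) and day 6 against day 3 (right); filled circles passed an adjusted p of 0.05 and red lines are list medians. The kinase core and STRIPAK lists centre at -0.25 and -0.16 against day 0, and the target signature at 0.81. The target signature shares LATS2 with the kinase core, and AMOTL2 and PTPN14 with the upstream regulators.

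The genes most alike in pattern were sought by Pearson correlation of log2(CPM + 1) over the 9 libraries, among the 11041 tested genes whose mean over the libraries reached 5 CPM, and are a description with no test, since all 9 libraries share the 3 days. For YAP1 these were KIAA1217 (r = 0.995), the circadian factor gene NPAS2 (0.991) and the MAP kinase phosphatase gene DUSP4 (0.990). KIAA1217 averaged 8.35 ± 0.242, 13.5 ± 1.93 and 57.9 ± 4.67 CPM on days 0, 3 and 6. For WWTR1 they were the splicing regulator gene RBM20 (0.970), APBA1 (0.969) and AMER2 (0.958), each with its highest mean on day 3. For TEAD2 they included BHLHE41 (0.994) and RAB3D (0.992).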

How the data were processed

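Estimated counts of 35762 gene symbols were deposited for 9 libraries. They were whole numbers not scaled to a common total. Tools named in the submitters' processing notes are kallisto 0.44.0, bcl2fastq 2.19 and DESeq2. The builds hg38, GRCh38 and GRCm38 appear there with no stated role. How transcripts were summed to genes, and whether strand was used, is not given in the sources used here. Of the genes that overlap a member, AL132780.3 (with AJUBA), CD37 and DKKL1 (with TEAD2) and RPL39P5 (with AMOTL2) were among the deposited symbols. They held at most 92 counts in a library. Other overlapping genes had no counts under their symbols, such as AP000942.2 with YAP1, WWTR1-AS1 with WWTR1, LATS2-AS1 with LATS2 and those within TEAD1. Without strand, reads of overlapping genes cannot be told apart from the member's where exons overlap.

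Counts were scaled by TMM and compared in edgeR 4.0.16 (R 4.3.3) by its quasi-likelihood test. filterByExpr (minimum count 10) kept 15345 genes, all 10 members among them. A single fit with 1 mean for each day used all 9 libraries, and Benjamini-Hochberg adjustment ran over all tested genes with a threshold of 0.05. SE is the log2 fold change divided by the square root of F. A further contrast took the change over days 3 to 6 minus that over days 0 to 3. Shares were tested by exact permutation. Intervals and floors (3 counts, 0.0398 CPM over day 0) cover counting error only. The fit was tested on simulated data.

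Members, lists and tests were chosen with earlier results of these data known. The named genes are the members, up to 4 called genes per list with the lowest p on day 6 against day 0 (the 2 most abundant where none passed), and the 3 genes most alike to YAP1, WWTR1 and TEAD2. The 2 signature genes called lower on day 6 against day 0 are named as well. Some genes are not reported here. Alternatives were median-ratio scaling, library size only, removal of mitochondrial and the 20 most abundant genes, no filter, DESeq2 1.42.0, limma-voom (limma 3.58.1), the 2 days alone, a replicate block and each library left out. The main fit did not pair libraries by replicate number, and whether the numbers mark pairs is not known.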

Additional observations from a re-analysis of the deposited data

Results flagged for a closer look

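In 5 of the 10 genes the change over days 3 to 6 differed from the change over days 0 to 3 by the edgeR test of that difference. Of all tested genes 7.57% did so (1.56% higher and 6.01% lower). The later minus the earlier log2 change was 3.00 for MYOF (adjusted p = 0.000464), where the earlier change was -0.89 and the later one 2.11. It was -0.88 for WWTR1 (adjusted p = 0.00409), -0.82 for TEAD2 (adjusted p = 0.00565), -0.59 for AJUBA (adjusted p = 0.0223) and -0.64 for LATS2 (adjusted p = 0.0374), each of which was called higher on day 3 against day 0 and was not called higher on day 6 against day 3. The call for LATS2 was lost in 9 of 16 alternatives, with adjusted p of 0.0183 to 0.2 over all of them. Those of MYOF, WWTR1 and TEAD2 were kept in all 16.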

How the results depend on the processing

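Of 669 recomputed changes of the 10 genes, 635 kept their side of the threshold and none reversed a call. The number called lower on day 6 against day 3, 1 as reported, was 0 with median-ratio size factors, library size only, removal of mitochondrial and the 20 most abundant genes, no filter, DESeq2 and the replicate block, and 2 in the fit of only the 2 days. With each library left out it was 0 to 2, on day 3 against day 0 it was 1 to 2, and for the later minus the earlier change it was 2 to 5. With library size only, 8 genes were higher and 0 lower on day 6 against day 0, and the median of all genes there was 0.13. The day 6 minus day 0 difference in the TEAD3 share was 1.78 to 2.18 percentage points with a library left out. YAP1 was not tested on day 3 against day 0 in the fit of only those days, where its counts did not pass the filter. Of 670 recomputed counts of the pathway lists, 86 moved by over 1.5 times. Same-numbered libraries had correlated deviations over 0.1 in 4 of 9 pairs (-0.15 to 0.206). Differently numbered pairs ranged from -0.26 to 0.241, so the check does not decide whether the numbers pair the libraries. The block also lost the call of LATS2 for the later minus the earlier change (adjusted p = 0.0619) and changed no other call of the 10 genes. The causes of these moves were not tested. A YAP1 level of up to 0.0398 CPM on day 0 is not excluded by the count of 0 (counting error only).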

Other observations

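The protein-coding genes next to YAP1 on chromosome 11 were looked at after the values of YAP1 had been seen, with the 2 nearest on each side taken. BIRC3, an inhibitor of apoptosis gene downstream of YAP1 (102317450 to 102339403), averaged 0.891 ± 0.124, 0.908 ± 0.102 and 1.97 ± 0.317 CPM on days 0, 3 and 6 and rose by day 6, with a log2 fold change of 1.15 against day 0 (SE 0.23, adjusted p = 0.00136) and of 1.11 against day 3 (SE 0.23, adjusted p = 0.00569). Its paralog BIRC2 (102347211 to 102378670) averaged 57.9 ± 6.96, 50.3 ± 1.13 and 54.2 ± 5.81 CPM and did not pass in any comparison. On the other side, CFAP300 (102047443 to 102084560) held 3, 0 and 6 counts over the libraries of days 0, 3 and 6 and was not tested. CEP126 (101915015 to 102001058) averaged 0.476 ± 0.118, 0.414 ± 0.0359 and 0.923 ± 0.323 CPM (0.95 on day 6 against day 0, SE 0.35, adjusted p = 0.0352, with overlapping libraries), and lost that call with DESeq2 (0.0868) and without replicate 1 (0.120) or 2 (0.0798) of day 0 or replicate 2 (0.144) or 3 (0.0998) of day 6, among others.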
